A study of Mus musculus with 12 samples.

Results

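Aminoacyl-tRNA synthetases are the enzymes that charge tRNAs with their amino acids. The 36 synthetase genes described here, 20 cytosolic and 16 mitochondrial, were taken from the 23420 gene symbols of both count tables by symbol, the mitochondrial ones being those whose symbol ends in 2. All 36 were present and all passed the filter on low counts in both assays.

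A synthetase activates its amino acid with ATP and transfers it to the matching tRNA (Eprs joins the enzymes for glutamate and proline in a single protein), and so supplies the ribosome with substrate. The cytosol and the mitochondrion use separate sets of enzymes in most cases. Nuclear genes encode both sets, and the mitochondrial enzymes are imported. Gars and Kars, for glycine and lysine, make the enzyme of both compartments from a single gene. Several cytosolic enzymes sit in a multisynthetase complex held together by the scaffold proteins Aimp1, Aimp2 and Eef1e1. When amino acids are scarce or the endoplasmic reticulum is stressed, the transcription factor ATF4 raises many cytosolic synthetase genes together with genes of amino acid synthesis and uptake.

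The cells were R1 mouse embryonic stem cells kept in serum and LIF on gelatin-coated dishes, and transfection lasted 48 h. The knockdown lysates, called siKrr1 A, siKrr1 C and siKrr1 D after the letters of the deposited columns, were transfected with siRNAs that target Krr1, whose product acts in making small ribosomal subunits. The controls are named siGFP, siNC and Lipo; the labels count them as control siRNAs, although the name Lipo states none. Each lysate was divided between RNA-seq of rRNA-depleted RNA and ribosome profiling, in which the stretches of mRNA that ribosomes shield from nuclease (footprints) are sequenced, giving 12 libraries, 3 per group and assay. Within a group the libraries differ in their siRNA, and the labels do not say whether they came from separate cultures, so p-values measure the spread between these samples only.

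Reads on genes numbered 31318772 to 39670139 per RNA library and 21615934 to 28911254 per footprint library. Levels are given as TMM-scaled CPM, the counts of a gene relative to the library total, and are relative to the other RNAs of a library, so that fewer cells of a type and less RNA per cell cannot be told apart. Krr1 RNA was at 33.7, 58.1 and 64.6 CPM in siKrr1 A, C and D, against 155, 152 and 160 CPM in siGFP, siNC and Lipo. All 10 embryonic stem cell markers were above 1 CPM in every library, and their summed RNA was 6676 to 7982 CPM in knockdown cells and 8303 to 8417 CPM in controls. The 10 fibroblast and feeder markers summed to 2.73 to 4.78 CPM of RNA in knockdown cells and 4.45 to 5.28 CPM in controls, with 3 of them at 0 in every RNA library. The stem cell marker sum thus moved with the knockdown, and its part in the results below was not tested.

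The first question was which synthetase mRNAs changed in level after Krr1 knockdown. Of the 20 cytosolic genes 2 fell, Aars and Yars, which encode the alanyl- and tyrosyl-tRNA synthetases, and 0 rose. Of the 16 mitochondrial genes 0 fell and 0 rose (edgeR's quasi-likelihood test, with calls at a Benjamini-Hochberg adjusted p under 0.05; at an unadjusted p under 0.05 there were 6 cytosolic and 2 mitochondrial genes, and DESeq2 called 0 mitochondrial genes). Among all 14038 genes tested, 4.8% were called, 2.11% lower and 2.69% higher, and 2937 had an unadjusted p under 0.05. The median log2 fold change was -0.11 for the cytosolic and -0.05 for the mitochondrial genes, beside 0.00 for all genes tested. Without siNC the cytosolic median was -0.0698, and without siKrr1 D the mitochondrial one was 0.0103. The log2 fold change was below 0 in 16 of 20 cytosolic and in 9 of 16 mitochondrial genes, against 50.2% of all genes. The changes were small: the cytosolic values ran from -0.46 to 0.10 and the mitochondrial ones from -0.16 to 0.23.

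**Figure D1:**
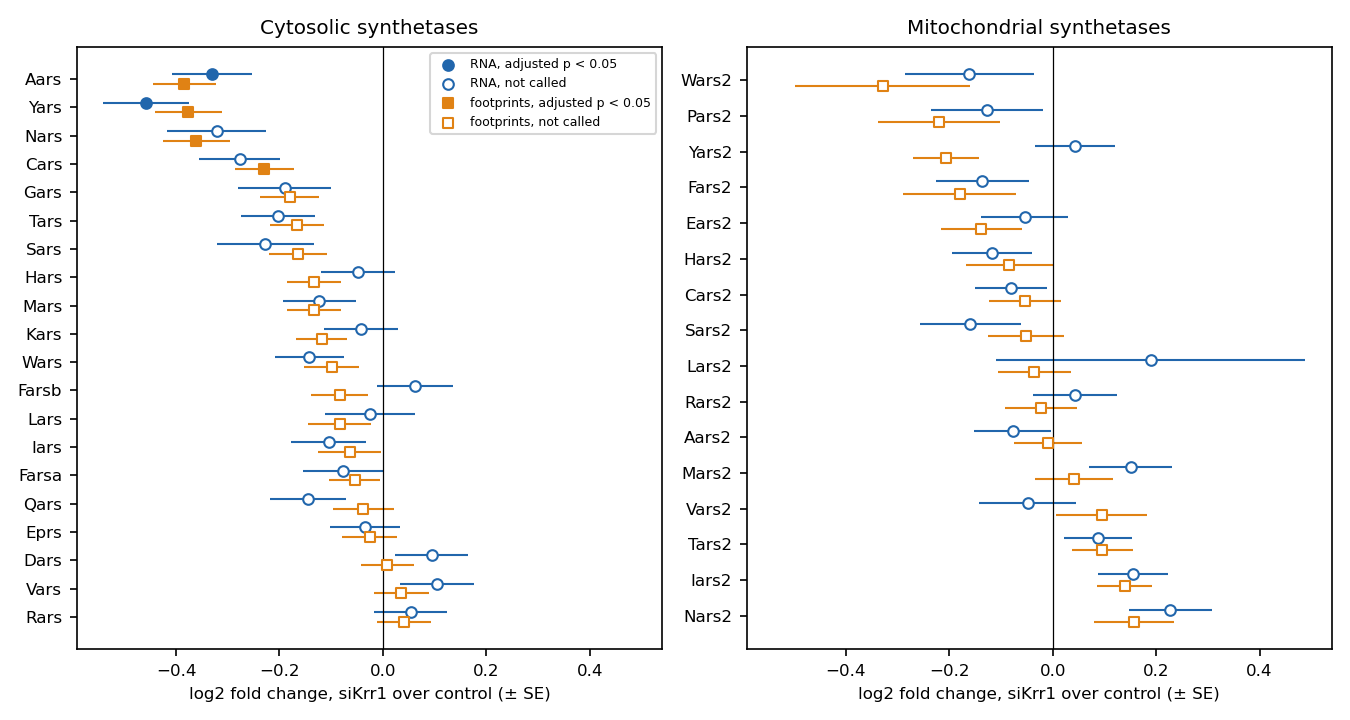
Log2 fold change of each synthetase gene, siKrr1 over control, with its SE, in RNA (circles) and footprints (squares), n = 3 libraries per group and assay; filled symbols have an edgeR adjusted p under 0.05. In the left panel the filled symbols are Aars, Yars, Nars and Cars, with footprint values from -0.38 to -0.23, and in the right panel every symbol is open.

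Yars had the lowest fold change of the 36 genes in RNA (chr4:129189734-129219240, mm10). Its RNA was at 334, 354 and 297 CPM in siKrr1 A, C and D, against 421, 474 and 458 CPM in siGFP, siNC and Lipo. Each knockdown library lay below each control. The log2 fold change was -0.46 ± 0.08 (SE; edgeR adjusted p = 0.0143), a level of 72.8% of controls. The call was kept in 4 of 6 fits that left out a library and was lost without Lipo (adjusted p = 0.0683, edgeR) or siNC (0.0688).

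Aars (chr8:111027778-111055569) was the other gene called in RNA. It was at 765, 828 and 780 CPM in siKrr1 A, C and D, against 922, 1063 and 999 CPM in siGFP, siNC and Lipo. The groups did not overlap, with siGFP the control nearest to the knockdown libraries. The log2 fold change was -0.33 ± 0.08 (edgeR adjusted p = 0.0346). This call was less stable: it held without siKrr1 C, and the edgeR adjusted p was 0.0642 to 0.16 in the other 5 fits that left out a library. The span of Aars shares 3974 bases with that of Ddx19b, and without a known strand setting its counts are less certain.

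The asparaginyl- and cysteinyl-tRNA synthetase genes Nars (chr18:64499655-64516515) and Cars (chr7:143557230-143600090) were next in RNA, with no overlap between groups and no call. Nars was at 306, 343 and 356 CPM in siKrr1 A, C and D, against 361, 459 and 434 CPM in siGFP, siNC and Lipo. Its control siGFP lay within 6 CPM of siKrr1 D, and the log2 fold change was -0.32 ± 0.10 (edgeR adjusted p = 0.0804). Cars was at 148, 142 and 136 CPM in siKrr1 A, C and D, against 156, 181 and 180 CPM in siGFP, siNC and Lipo, and again siGFP was the nearest control (-0.28 ± 0.08, edgeR adjusted p = 0.0685). The threonyl-tRNA synthetase gene Tars was at 236, 254 and 248 CPM in siKrr1 A, C and D, against 266, 301 and 283 CPM in siGFP, siNC and Lipo (log2 fold change -0.20, edgeR adjusted p = 0.132).

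Footprints reflect how many ribosomes sit on an mRNA as well as its level. Of 20 cytosolic genes 4 fell, Aars, Yars, Nars and Cars, and 0 rose, while 0 of 16 mitochondrial genes were called by edgeR or DESeq2 (10 cytosolic and 2 mitochondrial genes had an unadjusted p under 0.05 with edgeR). Among all 13287 genes tested 6.07% were called, 2.68% lower and 3.39% higher, and 2984 had an unadjusted p under 0.05. The median log2 fold change was -0.11 for cytosolic and -0.04 for mitochondrial genes, and 0.01 over all genes tested; the mitochondrial one was -0.0196 without siGFP and -0.0688 without Lipo. In 12 of 20 cytosolic genes each knockdown library was below each control and in 0 each was above, where 13.6% and 14.3% of all genes did so. The counts for the mitochondrial genes were 3 below and 3 above of 16. In RNA they were 8 below and 0 above of 20 cytosolic genes and 1 below and 3 above of 16 mitochondrial genes, where 13.4% of all genes were below and 13.6% above.

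Aars footprints were at 752, 790 and 829 CPM in siKrr1 A, C and D, against 958, 1054 and 1081 CPM in siGFP, siNC and Lipo. The gap between the groups was wider than the range within either, and the log2 fold change was -0.38 ± 0.06 (edgeR adjusted p = 0.00653). Yars footprints were at 233, 265 and 234 CPM in siKrr1 A, C and D, against 301, 329 and 321 CPM in siGFP, siNC and Lipo (-0.38 ± 0.06, edgeR adjusted p = 0.00898). Nars footprints were at 399, 442 and 454 CPM in siKrr1 A, C and D, against 519, 568 and 576 CPM in siGFP, siNC and Lipo (-0.36 ± 0.06, edgeR adjusted p = 0.00986). In all 3 genes the knockdown libraries stood together below the controls, at 76.6% of the control level for Aars, 77.1% for Yars and 77.9% for Nars.

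Cars was the weakest of the 4 calls. Its footprints were at 155, 146 and 150 CPM in siKrr1 A, C and D, against 168, 180 and 181 CPM in siGFP, siNC and Lipo (-0.23 ± 0.06, edgeR adjusted p = 0.039). Without a library in turn, Cars was called in 1 of 6 fits, the adjusted p from edgeR reaching 0.192 without Lipo. Nars and Yars were called in 4 of 6, with adjusted p of 0.075 and 0.0656 without Lipo and 0.0621 and 0.058 without siNC. Aars was called in 5 of 6, and its adjusted p was 0.0576 without Lipo. Leaving out Lipo reduced calls across the whole table as well, to 0.976% of 13420 genes against 6.07% with every library.

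**Figure D2:**
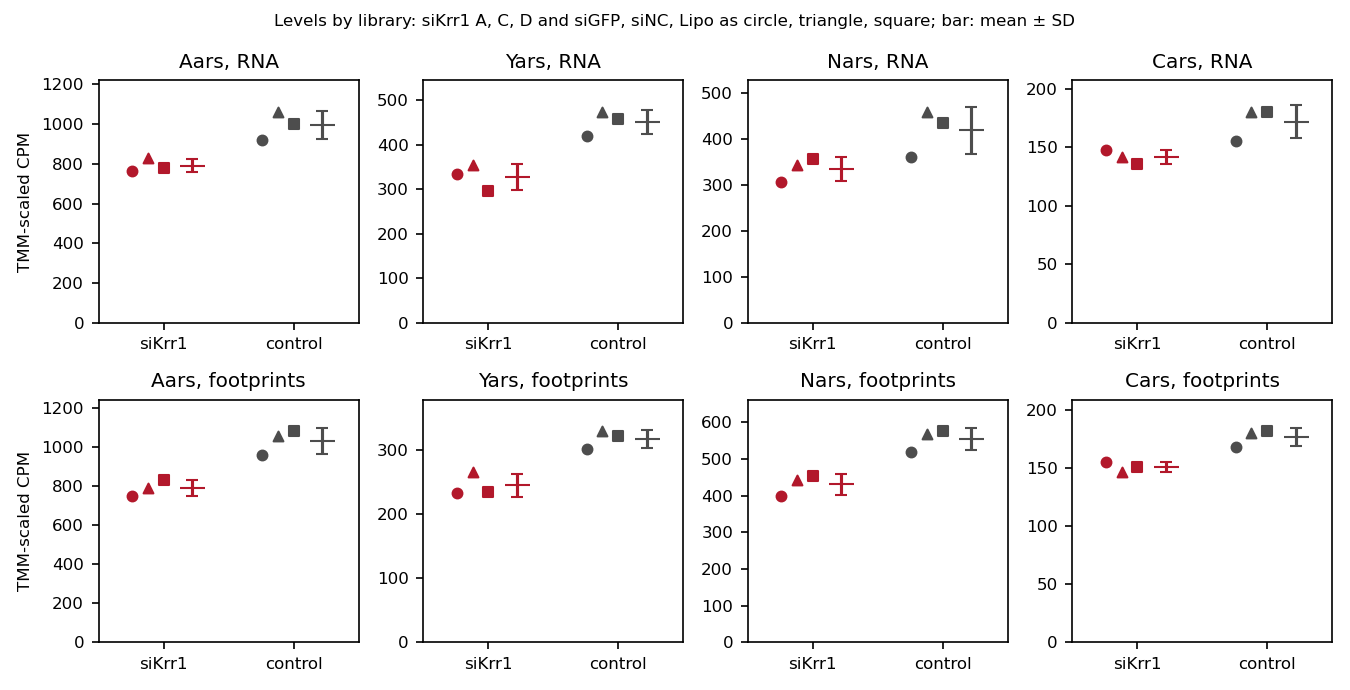
RNA (top) and footprint (bottom) levels in TMM-scaled CPM of the 4 genes that fell in footprints, 1 point per library, with mean ± SD (n = 3) beside them. In all 8 panels the siKrr1 libraries lie below every control, and siGFP (the circle of the control group) is the control nearest to them.

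Of the cytosolic genes, the glycyl- and threonyl-tRNA synthetase genes followed in footprints without passing the threshold. Gars footprints were at 938, 934 and 957 CPM in siKrr1 A, C and D, against 997, 1080 and 1129 CPM in siGFP, siNC and Lipo (log2 fold change -0.18 ± 0.06, edgeR adjusted p = 0.0863). Tars footprints were at 355, 371 and 383 CPM in siKrr1 A, C and D, against 408, 423 and 414 CPM in siGFP, siNC and Lipo (-0.17 ± 0.05, edgeR adjusted p = 0.086). In both genes the groups did not overlap. Sars, the seryl-tRNA synthetase gene, was at -0.16 (edgeR adjusted p = 0.115). In RNA the groups overlapped for Gars, with siGFP at 689 CPM below the lowest knockdown library at 696 CPM. At the other end stood the arginyl-, valyl- and aspartyl-tRNA synthetase genes: Rars, Vars and Dars had log2 fold changes of 0.05, 0.10 and 0.09 in RNA and 0.04, 0.04 and 0.01 in footprints, none called.

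The cytosolic genes can be described by known groupings. Of 12 genes commonly reported as ATF4 targets (Aars, Cars, Eprs, Gars, Iars, Lars, Mars, Nars, Sars, Tars, Wars and Yars), 2 fell in RNA and 4 in footprints, and 12 of 12 had values below 0 in both assays. The median log2 fold change of these 12 was -0.20 in RNA and -0.17 in footprints. Of the other 8 (Dars, Farsa, Farsb, Hars, Kars, Qars, Rars and Vars) 0 were called by edgeR or DESeq2 in either assay (with edgeR, 0 had an unadjusted p under 0.05 in RNA and 2 in footprints), 4 were below 0 in RNA and 5 in footprints, and the medians were 0.01 and -0.05. The difference between these lists was not tested. Over all genes tested, 2937 of 14038 in RNA and 2984 of 13287 in footprints had an unadjusted p under 0.05 with edgeR. Of the same genes, edgeR called 2.11% lower in RNA and 2.68% in footprints, and 50.2% and 48.5% had values below 0. The called genes all belong to the 12 enzymes outside the multisynthetase complex, whose median was -0.20 in RNA and -0.17 in footprints. The 8 enzymes of the complex had medians of -0.04 and -0.05, with 0 called by edgeR or DESeq2 and values from -0.14 (Qars) to 0.09 (Dars) in RNA. The groupings cross, since 8 of the 12 reported ATF4 targets lie outside the complex. The reported targets inside it, Eprs, Iars, Lars and Mars, ran from -0.12 to -0.03 in RNA, and Farsa, Farsb, Hars and Vars, which are in neither group, from -0.08 to 0.10, none of them called. The structural classes of the enzymes were closer to each other, with RNA medians of -0.05 over 19 class I and -0.10 over 18 class II genes, Eprs counting in both.

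Atf4 itself was lower in both assays. Its RNA was at 387, 428 and 432 CPM in siKrr1 A, C and D, against 518, 585 and 581 CPM in siGFP, siNC and Lipo (log2 fold change -0.43 ± 0.08, edgeR adjusted p = 0.0135). Its footprints were at 97.1, 124 and 123 CPM in siKrr1 A, C and D, against 170, 183 and 175 CPM in siGFP, siNC and Lipo (-0.62 ± 0.09, edgeR adjusted p = 0.00346). As in Aars, Yars, Nars and Cars, siGFP was the lowest of the controls. A further list held Myc beside regulators and markers of amino acid and other stress responses, among them the kinase genes Eif2ak1 to Eif2ak4. Of its 13 genes, 3 fell and 1 rose in RNA. In footprints 4 fell, Myc among them, and 1 rose. Over all genes tested, 2.11% fell and 2.69% rose in RNA, and 2.68% fell and 3.39% rose in footprints. Values were below 0 in 12 of the 13 genes in RNA and in 9 in footprints, against 50.2% and 48.5% of all genes. Ddit3 (-0.02 in RNA, 0.24 in footprints) and Ppp1r15a (-0.04, 0.20) were among those not called. Besides Atf4, the glutathione-degrading enzyme Chac1 (-0.88 in RNA, -0.83 in footprints) and the pseudokinase Trib3 (-0.42, -0.49) fell and Sesn2, a sensor protein of leucine that is also a p53 target, rose (0.38, 0.38). Chac1 RNA was at 5.24, 8.58 and 9.0 CPM in siKrr1 A, C and D, against 11.6, 15.1 and 15.6 CPM in siGFP, siNC and Lipo. Trib3 RNA was at 44.0, 40.5 and 49.8 CPM in siKrr1 A, C and D, against 58.4, 62.0 and 59.1 CPM in siGFP, siNC and Lipo. Sesn2 RNA was at 102, 90.6 and 100.1 CPM in siKrr1 A, C and D, against 80.8, 71.2 and 73.1 CPM in siGFP, siNC and Lipo. None of these groups overlapped. The transcription factor Myc also fell in footprints (-0.26). With each library left out in turn, Atf4 was called in 6 of 6 fits in footprints and in 4 of 6 in RNA, where its edgeR adjusted p was 0.0778 without Lipo and 0.07 without siNC. Chac1 and Trib3 were each called in 2 of 6 fits in RNA and 4 of 6 in footprints, Sesn2 in 1 and 5, and Myc in 3 of 6 in footprints.

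To show promoters of synthetase genes reported as ATF4 targets, the RefSeq promoter table (GRCm38.p6, the build also called mm10; 250 bases before to 50 after the start) was searched. It held 27 of the 36 genes. Nars and Cars were among the 9 without an entry and could not be searched. The motif was TGATGNAA on either strand, the core of the C/EBP-ATF response element to which ATF4 binds with a C/EBP partner. It was found in 5 of 13 cytosolic and 0 of 14 mitochondrial genes with an entry, and in 4.51% of all 27025 genes in the table, or 2.56% of the 10191 of them that were tested in RNA, counting a match in any entry of a gene. The 5 genes, Aars, Yars, Gars, Iars and Tars, are all among the reported ATF4 targets, of which 8 had an entry. For each of these genes 1 match follows, in a window of 30 bases on the strand of the gene, 5′ to 3′, with the match in capitals; it reads TTNCATCA where it lies on the opposite strand. Position 1 is the start that the promoter table uses, which for Aars and Yars lies inside the gene span given above.
Aars, match at 10 to 17, chr8:111033840-111033869, plus strand: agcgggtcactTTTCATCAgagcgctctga
Yars, match at 4 to 11, chr4:129189895-129189924, plus strand: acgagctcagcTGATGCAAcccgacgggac
Tars, match at -15 to -8, chr15:11399655-11399684, minus strand: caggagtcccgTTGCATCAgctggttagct
Gars, match at -30 to -23, chr6:55037960-55037989, plus strand: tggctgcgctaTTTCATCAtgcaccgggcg
Iars, match at 8 to 15, chr13:49682126-49682155, plus strand: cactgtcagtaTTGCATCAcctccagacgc

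A match describes these letters and is not evidence of binding. The genes with a match had RNA log2 fold changes from -0.46 (Yars) to -0.11 (Iars), and Gars, Iars and Tars were not called in either assay. Aars also held the E-box CACGTG, the palindromic site of Myc and related factors, which was found in 4 of 13 cytosolic and 1 of 14 mitochondrial genes and in 8.09% of all genes in the table, or 12% of those tested in RNA.

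The lysates did not all give the same picture. The median deviation of the 12 reported ATF4 targets from the control mean was -0.17, -0.16 and -0.21 in RNA of siKrr1 A, C and D, against -0.10, 0.09 and 0.02 in siGFP, siNC and Lipo (log2 scale). In footprints it was -0.19, -0.18 and -0.12 in siKrr1 A, C and D, against -0.08, 0.03 and 0.04 in siGFP, siNC and Lipo. For these 12 genes the knockdown libraries lay below all controls in both assays, with siGFP between them and the other controls. Over all 20 cytosolic genes the RNA medians overlapped, at -0.13, -0.05 and -0.19 in siKrr1 A, C and D, against -0.09, 0.07 and 0.03 in siGFP, siNC and Lipo. The footprint medians of the 20 genes did not overlap, at -0.14, -0.08 and -0.11 in siKrr1 A, C and D, against -0.04, 0.02 and 0.04 in siGFP, siNC and Lipo. The other 8 cytosolic genes had RNA medians of 0.02, 0.02 and -0.06 in siKrr1 A, C and D, against -0.08, 0.04 and 0.04 in siGFP, siNC and Lipo, and these groups overlapped. The order of the knockdown lysates in the ATF4 targets differed between assays: siKrr1 A had the least Krr1, and the lowest median was in siKrr1 D in RNA and in siKrr1 A in footprints.

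**Figure D3:**
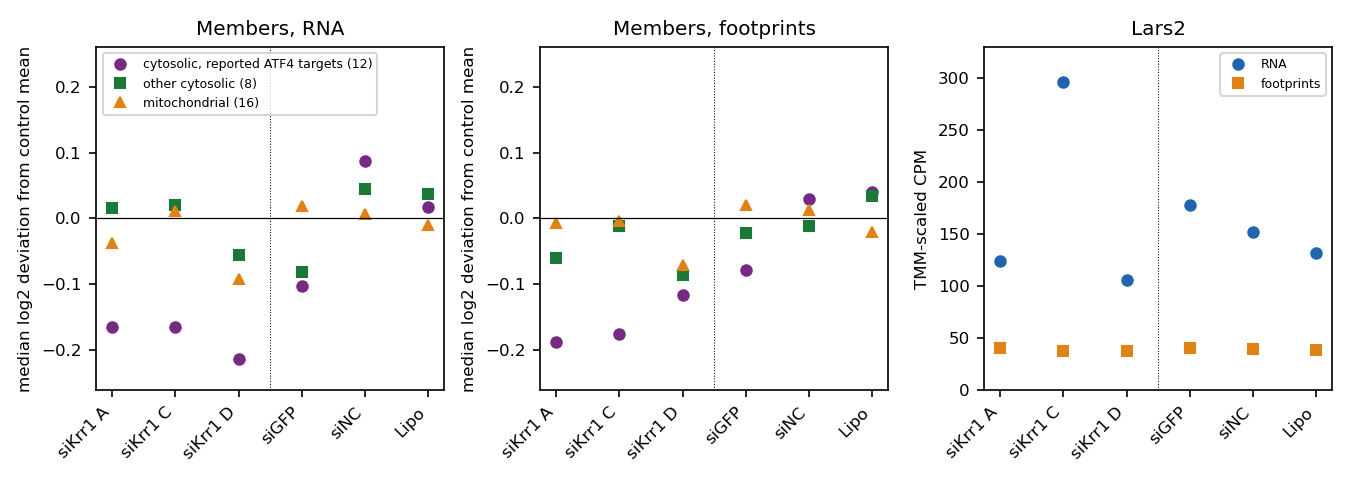
Left and middle: median log2 deviation from the control mean in each library for 12 cytosolic genes reported as ATF4 targets, 8 other cytosolic and 16 mitochondrial synthetase genes; right: Lars2 in TMM-scaled CPM. The 12 ATF4 targets lie between -0.21 and -0.12 in the siKrr1 libraries and at -0.10 or above in the controls, and Lars2 RNA reaches 296 CPM in siKrr1 C while its footprints stay at 37.7 to 40.5 CPM.

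The mitochondrial genes moved in both directions by small amounts. The genes for the asparagine, isoleucine and threonine enzymes, Nars2, Iars2 and Tars2, lay above every control in both assays without being called. Among all genes tested, 13.6% had each knockdown library above each control in RNA and 14.3% in footprints. Tars2 had log2 fold changes of 0.09 in RNA and 0.10 in footprints. Its margin in RNA was narrow, with siKrr1 A at 172.2 CPM and siNC at 172.1 CPM. Yars2 had the smallest footprint p of the mitochondrial genes, with each knockdown library below each control (-0.21 ± 0.06, edgeR adjusted p = 0.0865). Nars2 RNA was at 40.1, 38.0 and 38.4 CPM in siKrr1 A, C and D, against 32.9, 33.7 and 33.0 CPM in siGFP, siNC and Lipo (log2 fold change 0.23 ± 0.08, edgeR adjusted p = 0.128; 0.16 in footprints). Iars2 RNA averaged 189 ± 7.27 CPM in knockdown cells and 170 ± 6.07 CPM in controls (0.15, adjusted p = 0.22 with edgeR; 0.14 in footprints). The tryptophan enzyme gene Wars2 had the lowest footprint fold change of the mitochondrial genes. Its footprints were at 6.09, 4.32 and 6.47 CPM in siKrr1 A, C and D, against 7.26, 6.81 and 7.18 CPM in siGFP, siNC and Lipo (-0.33 ± 0.17, edgeR adjusted p = 0.285).

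For 13 amino acids both a cytosolic and a mitochondrial gene of the same name were listed. The cytosolic gene had the lower log2 fold change in 9 of 13 pairs in RNA and in 11 of 13 in footprints, with a median difference, cytosolic minus mitochondrial, of -0.215 and -0.17. The widest pair was Nars and Nars2, at -0.32 and 0.23 in RNA and -0.36 and 0.16 in footprints. Yars and Yars2 followed in RNA, at -0.46 and 0.04. The pairs in which the cytosolic gene was not lower in RNA were those for histidine, arginine, valine and tryptophan. These differences were not tested.

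Lars2, the mitochondrial leucine enzyme, stood apart in its RNA and is named because of its values. It was at 125, 296 and 106 CPM in siKrr1 A, C and D, against 178, 152 and 132 CPM in siGFP, siNC and Lipo. The coefficient of variation among the knockdown libraries was 59.7%, where the next highest mitochondrial gene, Pars2, had 11.6%. Its footprints were level, at 40.1, 37.8 and 37.7 CPM in siKrr1 A, C and D, against 40.5, 39.7 and 38.2 CPM in siGFP, siNC and Lipo. The RNA log2 fold change was 0.19 ± 0.30 (edgeR adjusted p = 0.771) with every library and -0.41 (edgeR adjusted p = 0.067) without siKrr1 C, so its direction rests on that library. What the additional RNA reads in siKrr1 C are was not tested.

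Translational efficiency, the change of footprints relative to the change of RNA, was called for 0 of the 36 genes by edgeR and by DESeq2. Across all 14236 genes edgeR called 0% (337 genes, of them 1 synthetase, at an unadjusted p under 0.05) and DESeq2 called 2 genes. The median log2 change was 0.00 in cytosolic and -0.06 in mitochondrial genes, beside 0.00 over all genes tested. With the lysate as a block 0 of the 36 were called as well, the medians were -0.01 and -0.06, and 5 genes were called higher and 1 lower over the whole table. The smallest p was that of Yars2, the mitochondrial tyrosine enzyme. The log2 ratio of its footprint CPM to its RNA CPM was 0.26, 0.27 and 0.10 in siKrr1 A, C and D, against 0.36, 0.52 and 0.49 in siGFP, siNC and Lipo. The groups did not overlap, but the change of -0.25 ± 0.10 had an unadjusted p of 0.0203 and an edgeR adjusted p of 1. Yars2 RNA averaged 63.0 ± 3.11 CPM in knockdown cells and 61.2 ± 2.97 CPM in controls, and its footprints were at 72.9 ± 3.98 CPM in knockdown cells and 84.0 ± 1.44 CPM in controls (SD, n = 3 each).

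Of the cytosolic genes 1, and of the mitochondrial genes 2, had a lower ratio in each knockdown lysate than in each control: Farsb, Yars2 and Rars2. For Rars2 the margin was below the second decimal. Farsb encodes the beta subunit of the cytosolic phenylalanine enzyme (-0.15 ± 0.10, edgeR adjusted p = 1). Its log2 ratio was 0.52, 0.52 and 0.44 in siKrr1 A, C and D, against 0.74, 0.58 and 0.60 in siGFP, siNC and Lipo. Sars2, the mitochondrial serine enzyme, had a higher ratio in each knockdown lysate (0.11, not called). Of all genes with counts in every library, 5.37% had lower and 6.82% higher ratios in each knockdown lysate. Mars2, Vars2, Qars and Dars followed by p, with changes of -0.11, 0.14, 0.10 and -0.09, unadjusted p of 0.289 to 0.331, and ratios that overlapped between the groups. The ratio of Qars, for example, was 0.48, 0.51 and 0.46 in siKrr1 A, C and D, against 0.38, 0.26 and 0.50 in siGFP, siNC and Lipo. That of Dars was 0.51, 0.63 and 0.41 in siKrr1 A, C and D, against 0.65, 0.57 and 0.59 in siGFP, siNC and Lipo. For Mars2 it was -0.28, -0.45 and -0.38 in siKrr1 A, C and D, against -0.25, -0.31 and -0.22 in siGFP, siNC and Lipo. For Vars2 it was -0.44, -0.68 and -0.54 in siKrr1 A, C and D, against -0.79, -0.81 and -0.50 in siGFP, siNC and Lipo.

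The level of the footprint-to-RNA ratio, in which the length of the gene largely cancels, separated the cytosolic from the mitochondrial genes in every lysate. The median log2 ratio of the 20 cytosolic genes was 0.35, 0.31 and 0.34 in siKrr1 A, C and D, against 0.40, 0.25 and 0.40 in siGFP, siNC and Lipo. That of the 16 mitochondrial genes was -0.60, -0.68 and -0.59 in siKrr1 A, C and D, against -0.58, -0.63 and -0.61 in siGFP, siNC and Lipo. Over all 13901 genes with counts in every library the median of the control means was -0.22. In controls 3 of 20 cytosolic genes (Hars, Sars and Yars) and 13 of 16 mitochondrial genes lay below it, the mitochondrial exceptions being Yars2, Rars2 and Sars2. For the same amino acid the cytosolic gene had the higher ratio in 11 of 13 pairs. RNA reads cover untranslated regions and footprints mostly do not, so a ratio also depends on how much of an mRNA is coding.

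**Figure D4:**
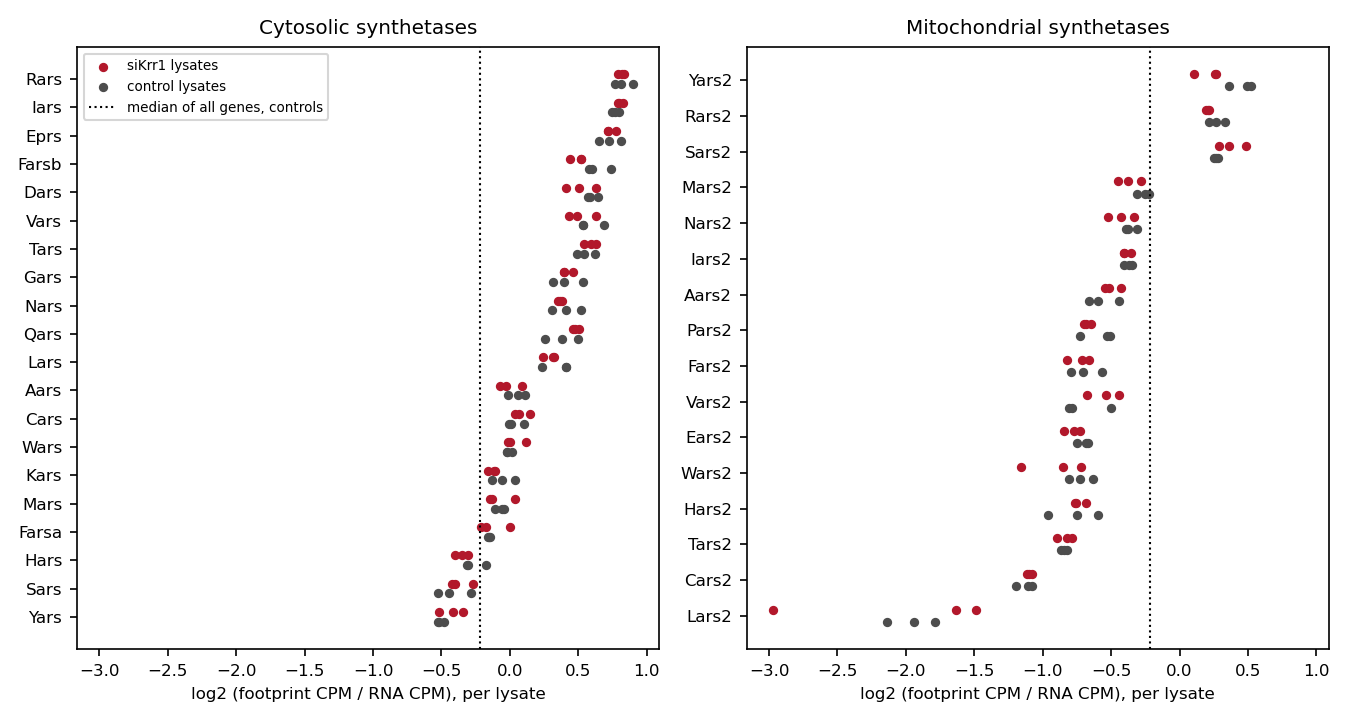
Log2 ratio of footprint CPM to RNA CPM for each synthetase gene, 1 point per lysate, siKrr1 above control in each row; the dotted line is the median of all genes in controls (-0.22). Most cytosolic genes lie right of the line, most mitochondrial genes left of it, and Lars2 reaches -2.97 in siKrr1 C.

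Within the cytosolic set, the neighbours named at each end of this order overlapped in their control values. The highest control ratios were those of Rars (0.83 ± 0.06), Iars (0.77 ± 0.03) and Eprs (0.73 ± 0.08; SD, n = 3 lysates). All 3 are in the multisynthetase complex, but so are Kars (-0.05) and Mars (-0.07). The lowest were those of Yars (-0.51 ± 0.02), Sars (-0.42 ± 0.13) and Hars (-0.26 ± 0.08). The subunits of the phenylalanine enzyme differed, with Farsb at 0.49 ± 0.05 in knockdown lysates and 0.64 ± 0.09 in controls and Farsa at -0.13 ± 0.11 in knockdown lysates and -0.15 ± 0.01 in controls. In the mitochondrial set Yars2 was highest in controls (0.46 ± 0.09), and Lars2 (-1.95 ± 0.17) and Cars2 (-1.13 ± 0.06) were lowest.

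Other genes of the pathway had few calls. For each list the counts at an unadjusted p under 0.05 with edgeR are given for RNA and then for footprints. Each named gene's log2 fold changes are in the same order. Over all genes tested, 2937 of 14038 in RNA and 2984 of 13287 in footprints had such a p. Of the 3 scaffold genes of the multisynthetase complex 0 were called by edgeR or DESeq2 (0 and 0 unadjusted), with Eef1e1 at 0.02 and 0.00 and Aimp1 at 0.05 and 0.07. Of 4 genes of mitochondrial glutaminyl-tRNA amidation and methionyl-tRNA formylation 0 were called by either tool (0 and 1 unadjusted), with Pet112 at -0.05 and -0.08 and Qrsl1 at -0.05 and -0.02. Of 6 genes of tRNA proofreading and selenocysteine incorporation edgeR called 0 (1 and 1 unadjusted) and DESeq2 called 1 higher in RNA, Dtd1, a deacylase that removes D-amino acids from tRNA, at 0.34 and 0.30 (DESeq2 adjusted p = 0.0378 in RNA), with Aarsd1 at -0.12 and -0.11 and Secisbp2 at -0.16 and -0.10. Of 6 genes for the elongation factors that deliver charged tRNA and for their partner proteins, 0 were called by either tool (1 and 1 unadjusted). Eef1a1 was at 0.05 and 0.05 and Eef1b2 at -0.18 and -0.08. Of 24 tRNA maturation genes edgeR called 1, lower in both assays (7 and 4 unadjusted). Among all genes tested, 2.11% were called lower in RNA and 2.68% in footprints. The gene was Rpp25, a protein subunit of the RNase P and MRP complexes, at -0.48 in RNA and -0.51 in footprints (edgeR adjusted p = 0.0329 and 0.00976). Its RNA was at 51.3, 52.8 and 38.6 CPM in siKrr1 A, C and D, against 66.0, 66.6 and 65.9 CPM in siGFP, siNC and Lipo. With each library left out in turn, Rpp25 was called in 2 of 6 fits in RNA and in 4 of 6 in footprints.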

How the data were processed

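Values are the authors' deposited raw counts per gene symbol. The submitters' processing notes name STAR, HTSeq and the build mm10. Their versions, annotation and strand setting: not given in the sources used here. Entries for unassigned reads were left out of library sizes: 31.2% to 33.4% of unique alignments in RNA and 57.5% to 63.3% in footprints were on no gene. Knockdown columns carry letters and titles numbers, so they were assigned to their group only.

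Tests were edgeR's quasi-likelihood test on all genes that passed filterByExpr (in R 4.3.3, edgeR 4.0.16 and limma 3.58.1; TMM factors 0.984 to 1.04), adjusted by Benjamini-Hochberg over all genes, with calls at an adjusted p under 0.05. SEs were derived from F. For translational efficiency an interaction term between assay and condition was fitted to the 12 libraries. The lysate pairs the assays: the labels state that each was divided, and deviations from group means correlated between assays with r from 0.265 to 0.712 over 6117 genes. Alternatives were DESeq2 1.42.0 (test or size factors), other filters, 1 fit over 12 libraries, a lysate block and leaving out each library (in efficiency, each lysate); for the further lists these were added after the data were seen. The fits were tested on simulated data with 200 changed genes.

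Members, lists and tests were chosen with earlier results of these data known. Values per library are given for members called, or with the 6 smallest p in a comparison. In RNA they are also given for up to 4 called genes per further list. Where edgeR called none in a list, the 2 most abundant genes are given as fold changes. Myc is given as a fold. Lars2, Sars, Tars2, Dtd1, Ddit3, Ppp1r15a, Gars in RNA and Yars2 in footprints were added after their values were seen. So were the members named for the ends of a range. Coordinates and promoters are from RefSeq (GRCm38.p6), where all 36 genes had coordinates; 8 overlap another protein-coding gene, and without a known strand setting their counts are less certain. No gene lengths were at hand, so levels are not compared between genes. Some items of the lists and promoters are not reported here.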

Additional observations from a re-analysis of the deposited data

How the results depend on the processing

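Directions of the called genes, Aars, Yars, Nars and Cars, held in every alternative run. The number of cytosolic genes called lower in RNA was 2, and 4 with the DESeq2 test, with all genes that had a count and with 1 fit over 12 libraries, where Nars and Cars joined. In footprints the fit over 12 libraries lost Cars (edgeR adjusted p = 0.0706), and all genes with a count added Gars (0.045). With 1 library left out, cytosolic calls ranged from 0 to 2 in RNA, and in footprints from 0 to 4 for cytosolic and 0 to 1 for mitochondrial genes (Yars2 without siKrr1 A). The median log2 fold change of the cytosolic genes ranged from -0.137 to -0.0698 in RNA. That of the mitochondrial genes ranged from -0.075 to 0.0103 in RNA and from -0.0688 to -0.0196 in footprints, in RNA above 0 only without siKrr1 D, and, in translational efficiency, from -0.0761 to -0.0215. The lysate as a replicate block gave medians of -0.0056 for cytosolic and -0.058 for mitochondrial genes in translational efficiency, and changed no call among the 36 genes. Over all genes, 0.8% were called in RNA without Lipo and 9.09% without siKrr1 C, beside 4.8% with every library; in footprints the shares were 0.976% and 9.91%, beside 6.07%. The calls over all genes numbered 378 higher and 296 lower in RNA with edgeR, 666 and 536 with DESeq2; in footprints they were 450 and 356 with edgeR and 784 and 616 with all genes that had a count. Of the single-gene comparisons under alternatives, 380 in RNA, 383 in footprints and 395 in translational efficiency kept their call or, where not called, stayed within 1 SE of the value reported, and 7, 11 and 0 lost a call.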
